A study of Mus musculus with 2 samples.

Results

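Peaks of ATF4 binding that lay deep inside long protein-coding genes were described in the 1 ATF4 library of the study. A peak belonged here when its summit was more than 1000 bp from both ends of every annotated gene, lay inside a protein-coding gene, and that gene spanned at least 100 kb. Of 7873 peaks, 1558 met this rule (19.8%, 95% interval 18.9 to 20.7%). They fell in 1016 of the 2429 long protein-coding genes. The library came from cultured neurons of the cortex and hippocampus of C57BL/6 mouse embryos, about 100000 cells, and was made with an antibody to ATF4. The study also made a library with IgG, which was not analysed here. Whether the neurons were treated before the assay is not given in the sources used here. A peak list holds no measure of cell identity, so the cell type was taken from the labels.

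ATF4 is a bZIP transcription factor that is translated when the PERK kinase and its relatives phosphorylate the initiation factor eIF2 alpha, and it turns on genes of amino acid supply, antioxidant defence and one-carbon metabolism. It pairs with C/EBP family proteins and other bZIP factors, and the composite element they share is often written TGATGCAA. CUT&Tag finds such places by bringing a transposase to the antibody, so that DNA near the bound protein is cut and tagged. Long genes are a marked feature of neurons: many encode adhesion molecules, ion channels, receptors and scaffolds of the synapse, and nearly all of their sequence is intron.

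Before the counts, some single places at listed transcript starts are shown, picked for that position and not as the tallest peaks. The peak list and the start table met at a small number of sites, where a summit inside a long gene fell on a listed transcript start. In all but 2 cases the start belonged to the host; the starts near the Zdbf2 and Oprm1 summits are those of Gpr1 and Ipcef1. These sites were chosen after the data had been seen. Of the 1558 peaks, 23 lay within 300 bp of a start listed by RefSeq (1.48%) and 39 within 1000 bp (2.50%). Height is given as fragments, the tagged DNA pieces that cover the summit, solved from the deposited fold enrichment and p-value. All 5 start windows that hold the summit of a peak of at least 6 fragments are shown, to set the letters beside the peaks. They come from RefSeq on GRCm38, run from 250 bases before to 50 after a listed start and are written 5' to 3' on the strand of the gene. Capitals mark TGATGCAA or, in Creb5, a match to TGATGNAA, each on either strand.

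Ank2 chr3:127409009-127409308, minus strand: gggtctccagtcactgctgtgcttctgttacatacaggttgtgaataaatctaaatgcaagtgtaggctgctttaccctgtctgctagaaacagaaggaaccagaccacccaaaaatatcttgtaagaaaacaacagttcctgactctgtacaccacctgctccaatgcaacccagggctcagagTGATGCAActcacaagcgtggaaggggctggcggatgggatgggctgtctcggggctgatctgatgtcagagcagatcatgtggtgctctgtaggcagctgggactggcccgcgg
Creb5 chr6:53573124-53573423, plus strand: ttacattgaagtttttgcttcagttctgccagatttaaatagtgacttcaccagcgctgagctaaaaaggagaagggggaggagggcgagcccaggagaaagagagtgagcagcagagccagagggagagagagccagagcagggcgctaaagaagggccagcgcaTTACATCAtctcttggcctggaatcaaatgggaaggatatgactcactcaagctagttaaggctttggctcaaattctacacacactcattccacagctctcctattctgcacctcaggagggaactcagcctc
Slc7a11 chr3:50443564-50443863, minus strand: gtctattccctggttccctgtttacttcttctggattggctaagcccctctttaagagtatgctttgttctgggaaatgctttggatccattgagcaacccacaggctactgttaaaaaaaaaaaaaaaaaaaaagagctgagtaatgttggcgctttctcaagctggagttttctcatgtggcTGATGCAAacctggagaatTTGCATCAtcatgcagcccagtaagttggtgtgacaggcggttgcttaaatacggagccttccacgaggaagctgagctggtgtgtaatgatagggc
Gphn chr12:78226405-78226704, plus strand: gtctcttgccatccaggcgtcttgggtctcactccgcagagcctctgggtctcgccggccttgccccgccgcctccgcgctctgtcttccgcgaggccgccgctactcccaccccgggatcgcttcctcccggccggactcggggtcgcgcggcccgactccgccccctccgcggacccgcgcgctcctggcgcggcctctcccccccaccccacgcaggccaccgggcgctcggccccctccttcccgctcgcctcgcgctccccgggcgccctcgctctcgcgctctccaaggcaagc
Sertad2 chr11:20631727-20632026, plus strand: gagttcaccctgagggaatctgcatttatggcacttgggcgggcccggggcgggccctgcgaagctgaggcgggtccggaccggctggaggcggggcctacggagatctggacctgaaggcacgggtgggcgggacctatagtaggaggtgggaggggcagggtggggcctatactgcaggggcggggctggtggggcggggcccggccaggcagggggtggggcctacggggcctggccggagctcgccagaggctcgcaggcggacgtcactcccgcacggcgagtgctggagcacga

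The Ank2 peak was the tallest of these. Ank2 encodes ankyrin-B, which ties membrane proteins to the spectrin skeleton of axons. Its peak held 47 fragments at the summit (95% interval 34.5 to 62.5), 15.2-fold over the local background of the peak caller, and was 616 bp wide. The summit lay 20 bp from the listed start, 15.8% of the way into the gene, and 41 bp from the TGATGCAA in the window. Slc7a11, which encodes the cystine transporter subunit xCT and is a textbook ATF4 target, held 1 inside peak, of 9 fragments (4.12 to 17.1) and 7.07-fold (q = 3.94e-07). Its summit lay 17 bp from a listed start that sits 41.4% of the way into the annotated span. That window holds 2 copies of TGATGCAA, the nearer one 60 bp from the summit. Creb5, itself a bZIP factor, held a peak of 19 fragments (11.4 to 29.7), 11.8-fold, 49 bp from a listed start and 69.3% into the gene. Gphn, the gephyrin scaffold of inhibitory synapses, held a peak of 8 fragments (3.45 to 15.8), 123 bp from a start and 1.97% into the gene, and its window holds none of the motifs searched. The window of Sertad2 holds none either; its peak had 6 fragments (2.20 to 13.1), 214 bp from the start and 80.6% into the gene.

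The motif shares rest on few windows. Of the 16 start windows that held the summit of an inside peak, 2 had TGATGCAA, 0 had TGACGTCA, the palindromic CRE, and 3 had TGATGNAA. Of all 32851 RefSeq start windows of the same length, 0.895% had TGATGCAA, 1.79% had TGACGTCA and 3.97% had TGATGNAA, on either strand. The 3 patterns overlap only in that TGATGNAA takes in every TGATGCAA. Most listed starts inside long genes carried no peak: 1149 starts lay inside long genes and over 1 kb from every gene end, and 26 of them (2.26%, 1.48 to 3.30%) had an inside peak within 300 bp. Inside shorter genes, 5.54% of 1282 peaks lay within 300 bp of a listed start. The 39 long-gene peaks within 1000 bp of a start were taller than the rest, with a median of 5 against 4 fragments and 35.9% (21.2 to 52.8%) against 18.4% with 6 or more.

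Peaks inside long genes were sparser than peaks inside shorter genes and denser than peaks between genes. Their density was 2.62 per Mb (2.49 to 2.75) over 596 Mb. Inside protein-coding genes under 100 kb it was 3.45 per Mb (3.27 to 3.65). Outside protein-coding genes it was 2.01 per Mb (1.94 to 2.08), and within 1 kb of gene ends it was 11.4 per Mb (10.9 to 12.0). The ratio of long to shorter genes was thus 0.757 (0.703 to 0.816) and that of long genes to sequence outside genes 1.30 (1.22 to 1.38). The ratio to sequence outside genes was 1.33 (1.15 to 1.53) with only peaks of at least 6 fragments and 1.10 (0.931 to 1.30) with only peaks of −log10 q of at least 5. By height it was 1.41 (1.20 to 1.65) at 6 to 9 fragments, 1.44 (0.994 to 2.06) at 10 to 19 and 0.519 (0.245 to 1.00) at 20 or more. The ratio to shorter genes was below 1 at each of these heights, at 0.863 (0.705 to 1.06), 0.555 (0.370 to 0.831) and 0.236 (0.107 to 0.487). In each class only sequence that the rule allows was counted, but assembly gaps and repeats that reads cannot be placed in were not removed, and their part in these densities was not tested. With 1 library these intervals cover counting error only, and no test between samples was possible.

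Among long genes density fell with gene length, while the share of genes with a peak rose. Across the 100 kb cut itself density did not fall, being 3.01 per Mb (2.75 to 3.29) in genes of 50 to 100 kb. Of the 2429 long genes, 41.8% held at least 1 inside peak and 10.7% held 1 of 6 or more fragments. Genes of 100 to 150 kb had a peak in 29.0% of cases (26.2 to 32.0%) and 3.15 peaks per Mb (2.83 to 3.50). Genes of 300 to 500 kb had a peak in 60.9% of cases and 2.68 per Mb. Of the 59 genes of 1000 kb or more, 52 had a peak (88.1%, 77.1 to 95.1%), at only 1.81 per Mb (1.53 to 2.13). The fall was also seen on autosomes more than 20 kb from every gene end, from 3.19 per Mb (2.72 to 3.72) in genes of 100 to 150 kb to 1.85 (1.52 to 2.23) in those of 1000 kb or more. The median span was 227 kb for the hosts and 152 kb for the 1413 long genes without an inside peak.

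**Figure D1:**
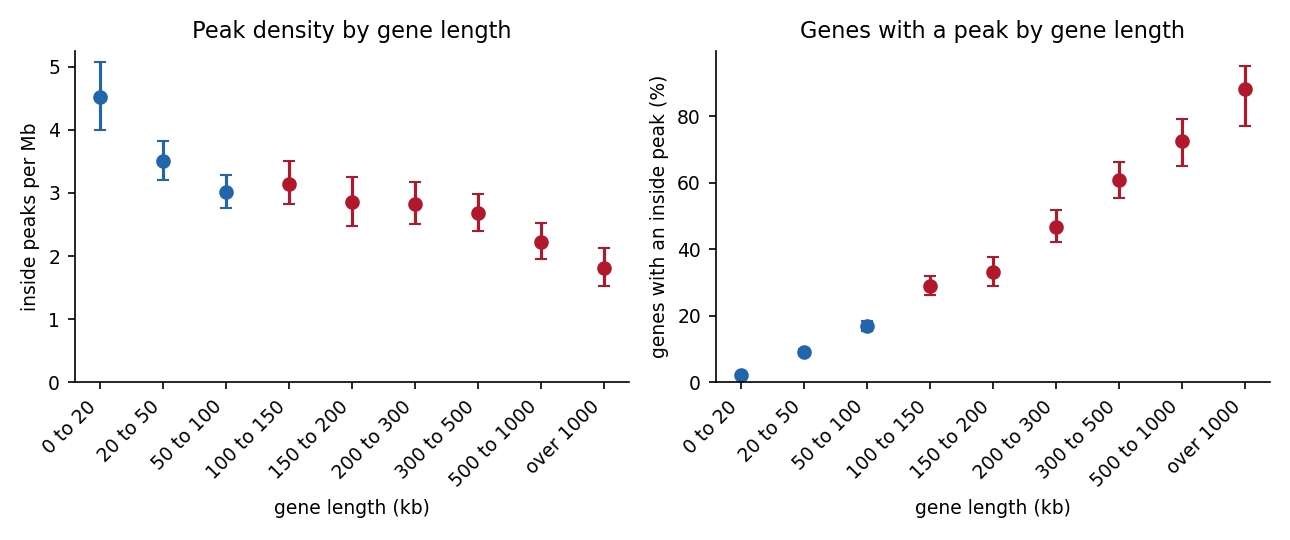
Left, inside peaks per Mb by gene length in kb, with exact Poisson 95% intervals; right, percent of genes with at least 1 inside peak, with Clopper-Pearson 95% intervals; long genes in red, shorter genes in blue. Density falls from 4.51 per Mb in genes under 20 kb to 1.81 in the longest, while the share of genes with a peak rises to 88.1%. Between 50 to 100 kb (3.01) and 100 to 150 kb (3.15) density does not fall.

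At matched distance from gene ends, long and shorter genes differed less. In long genes, sequence 1 to 2 kb from the nearest end of any gene had 4.79 peaks per Mb (3.76 to 6.03), and sequence over 100 kb away had 2.10 (1.82 to 2.41). At 20 to 50 kb the density was 2.63 per Mb in long genes and 2.87 in shorter genes, a ratio of 0.916 (0.762 to 1.11). In each of the 5 distance classes that both gene classes share, the ratio was below 1 with an interval that reached past 1, the lowest being 0.819 (0.661 to 1.01) at 2 to 5 kb. Against sequence outside genes the ratio was 1.57 (1.19 to 2.05) at 1 to 2 kb. It was 1.12 (0.913 to 1.37) at 2 to 5 kb and 1.10 (0.910 to 1.31) at 5 to 10 kb, where the intervals reached below 1. Farther away it was 1.25 (1.07 to 1.46) at 10 to 20 kb, 1.35 (1.20 to 1.52) at 20 to 50 kb, 1.69 (1.44 to 1.99) at 50 to 100 kb and 1.74 (1.45 to 2.08) beyond 100 kb. These ratios pool all chromosomes. Sequence outside genes had 0.986 peaks per Mb on X and 0.0914 on Y, against 2.23 on the autosomes. Without X and Y the ratio over all distances was 1.21 in place of 1.30, and the distance classes were not computed without them.

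**Figure D2:**
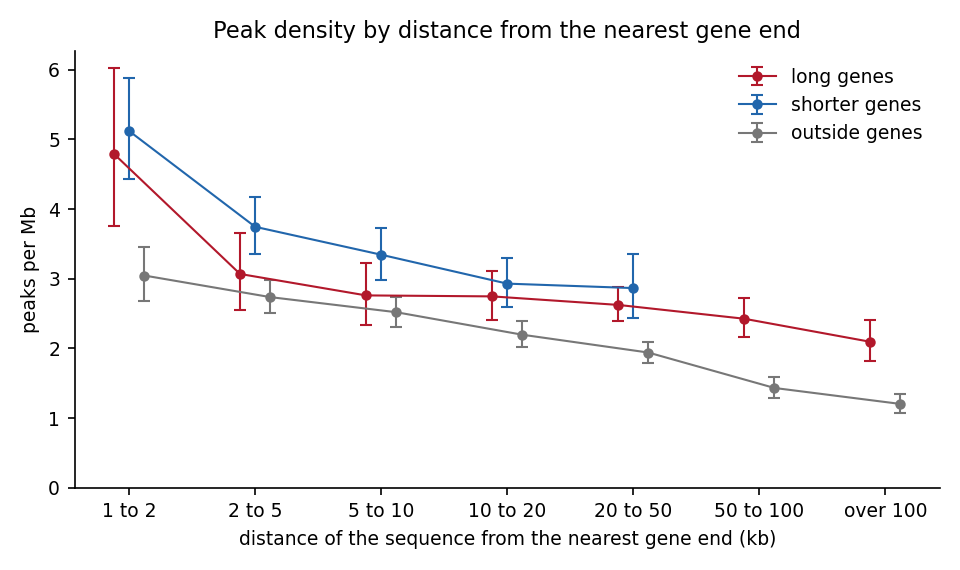
Peaks per Mb (vertical axis) by distance of the sequence from the nearest gene end in kb (horizontal axis), for long genes, shorter genes and sequence outside protein-coding genes; bars are exact Poisson 95% intervals. The 2 gene classes lie close at each distance, and beyond 50 kb long genes lie above the sequence outside genes (2.43 against 1.43 per Mb at 50 to 100 kb). All chromosomes, with X and Y, are pooled.

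Long genes on the X chromosome had few peaks. The autosomes held 2.70 inside peaks per Mb of long gene (2.57 to 2.84), and 992 of their 2313 long genes had a peak. On X there were 27 peaks in 24 of 114 long genes, 0.940 per Mb (0.620 to 1.37). Sequence outside genes on X was also low, at 0.986 per Mb (0.816 to 1.18) against 2.23 on the autosomes. Among the autosomes, long genes ranged from 1.94 per Mb on chromosome 10 to 3.40 on chromosome 11. Long genes were denser than sequence outside genes on 18 of 19 autosomes and sparser than shorter genes on 16 of 19.

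Most hosts held a single peak. Of the long genes, 660 held 1 peak, 241 held 2, 73 held 3, 26 held 4 and 16 held 5 or more. The 356 genes with at least 2 held 57.6% of the peaks. Across the 2429 long genes, the number of peaks rose with the sequence available in each, with a Spearman correlation of 0.36 and a Pearson correlation of 0.45. This is a description over genes that share 1 library, and genes are not replicates.

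Rora, Pde4d and Nrxn3 held the most peaks, 8 each (95% interval 3.45 to 15.8). They were picked as the largest counts among 2429 genes, and the interval does not allow for that choice. Whether counts of this size arise by chance among so many genes was not tested. Rora encodes a nuclear receptor of the ROR family and spans 735 kb on chromosome 9, from 68653404 to 69388246. The mean density of long genes would give it 1.87 peaks. Its peaks were low, with 4, 3, 3, 3, 7, 3, 3 and 5 fragments from the 5' to the 3' end, and only 1 reached 6. Pde4d, a phosphodiesterase that breaks down cyclic AMP, spans 1302 kb on chromosome 13, where the mean density gives 3.35 peaks. It carried 8, 4, 10, 3, 6, 6, 5 and 7 fragments in the same order, so 5 of its 8 peaks had at least 6. Nrxn3, which encodes the presynaptic adhesion receptor neurexin 3, spans 1612 kb on chromosome 12 and would hold 4.20 at the mean density. Its fragments were 6, 3, 3, 3, 3, 7, 6 and 3. Between its 4th and 5th peaks, 137.6 and 975.5 kb into the gene, lay a stretch without any.

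Of the next 9 hosts, Sdk1 held the most. Sdk1, an immunoglobulin superfamily adhesion protein of synapses, held 7 peaks against 2.51 at the mean density, none above 5 fragments. Cdh13, a cadherin held to the membrane by a lipid anchor, held 6 against 3.06, and none passed 5 fragments either. Dlg2, the postsynaptic scaffold PSD-93, held 6 against 5.10 at the mean density. Its own 3.08 per Mb stood against 1.81 (1.53 to 2.13) in all genes of 1000 kb or more. Of the long genes, 10 held 5 peaks, and the 6 densest were Osbpl10, an oxysterol-binding protein relative (0.634 at the mean density), Gse1 (0.876), Prkce, a protein kinase C (1.25), Dlgap1, a partner of the PSD-95 scaffold (2.18), Nell1 (2.30) and Adamtsl1 (2.37). The others with 5 were Astn2 (2.65), Tenm2 (3.15), Lsamp (5.70) and Cntnap2 (5.77), so the last 2 lay below the count at the mean density. That mean is of all long genes and not of genes of their length. Their own 2.30 and 2.27 per Mb lay above the 1.81 of genes of 1000 kb or more. At their own ends, within 1 kb, 0 of the 12 genes named first, from Rora to Adamtsl1, carried a peak. Over all long genes 7.25% did, so 0 of 12 is near that share.

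**Figure D3:**
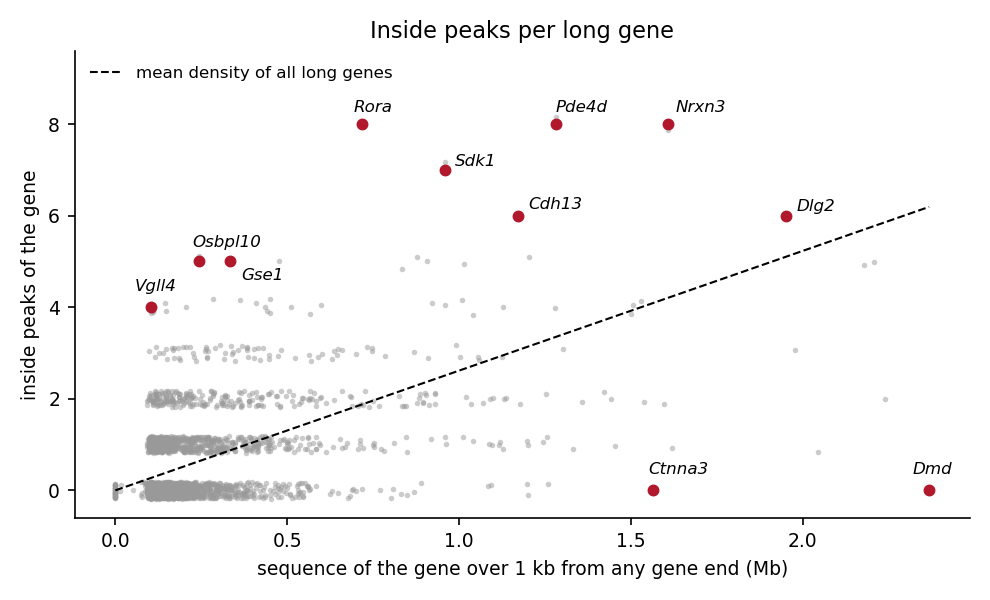
Number of inside peaks of each of the 2429 long genes (vertical axis, points spread slightly around whole numbers) against its sequence over 1 kb from any gene end in Mb; the dashed line is the mean density of 2.62 per Mb and red points are named genes. Rora, Pde4d and Nrxn3 stand at 8 peaks, and Dmd, the longest gene, at 0.

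A ranking by density favours shorter members of the class by construction, since most genes with at least 4 peaks held 4 or 5. Among genes with at least 4 peaks, Vgll4, a cofactor of the TEAD factors, was densest at 38.7 per Mb: it held 4 peaks over 103 kb, of 6, 10, 7 and 3 fragments from the lower coordinate up. Pik3ap1, an adaptor of PI3 kinase, had 37.5 per Mb. Ctdspl, a small phosphatase, had 36.5 and Cyria, a regulator of Rac1 signalling, 36.1. Mvb12b, of the ESCRT-I sorting complex, had 27.8, Arhgef10l, a guanine nucleotide exchange factor, 27.4, Osbpl10 20.6 and Chst11, a chondroitin sulfotransferase, 19.5. Each of these rests on 4 or 5 peaks, and the interval of a count of 4 runs from 1.09 to 10.2. Vgll4 had 3 peaks of 6 or more fragments and the others at most 1.

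**Figure D4:**
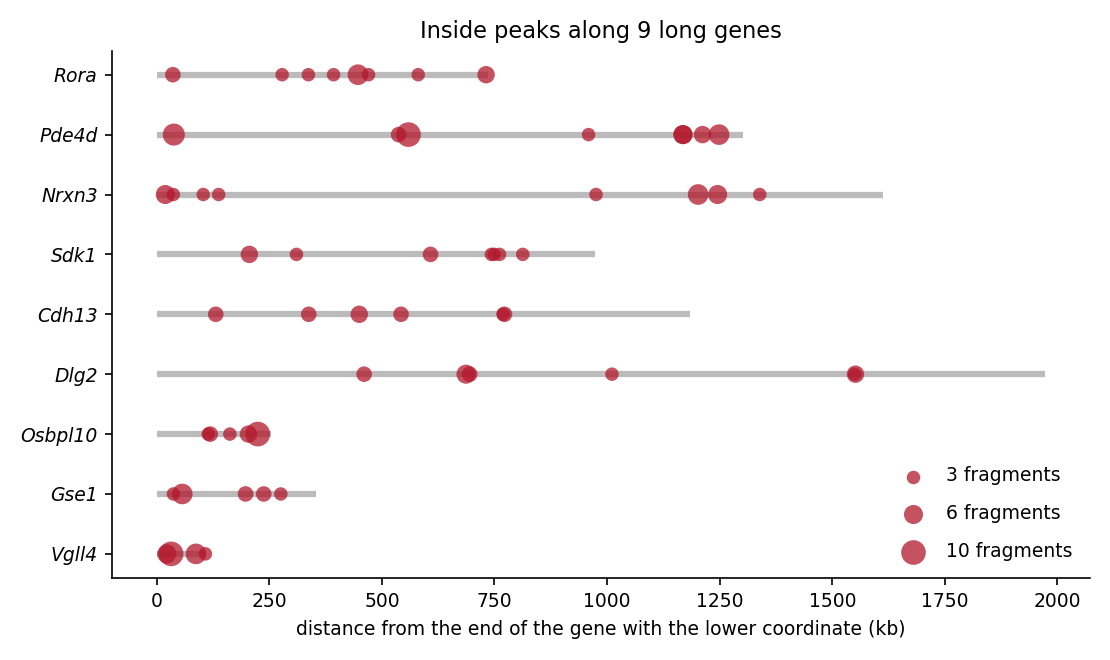
Positions of inside peaks along 9 long genes, as distance in kb from the gene end with the lower coordinate; grey bars are the genes to scale and the area of each point is the number of fragments at the summit. Rora peaks spread along the gene, while Nrxn3 has 4 peaks near one end and 4 in the far part.

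Several of the longest genes held no peak. Dmd, which encodes dystrophin and is the longest gene at 2390 kb, held 0 where the mean density gives 6.19. Ctnna3, an alpha-catenin, held 0 against 4.09, Il1rapl2, a relative of the interleukin-1 receptor, 0 against 3.29, and Ccser1 0 against 3.14. A count of 0 allows up to 3.69 peaks. Dmd and Il1rapl2 are on X, where long genes had 0.940 peaks per Mb against 2.70 on the autosomes. All the genes named here span 1000 kb or more, a class with 1.81 per Mb. The counts given at the mean density allow for neither and are higher than these densities would give. Ctnna3 and Ccser1 each had 1 peak within 1 kb of an own end. Of the 7 genes of 1000 kb or more without an inside peak, 3 are on X, which has 4 genes of that size.

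The lists below were written by hand from general knowledge. Only their members of 100 kb or more were counted, and in 7 of the 10 lists the median span of these was above that of all long genes. So each percent stands beside 41.8% for all long genes and each count beside the one their sequence gives at the mean density. Of the 44 long genes for synaptic and neuronal adhesion, 30 had a peak (68.2%), and they held 75 peaks against 88.0. Their median span was 729 kb, against 172 kb for all long genes. Nrxn3 led with 8, then the teneurin gene Tenm2, Lsamp and Cntnap2 with 5 each, and 1 peak of Tenm2 reached 12 fragments. The list leaves out Sdk1, with which it holds 82 peaks against 90.5. Of 28 genes of cadherins, protocadherins and catenins 15 had a peak, with 30 peaks against 36.9. The 4 catenin genes held 2 of these against 9.44, and the other 24 genes held 28 against 27.4, a density of 2.67 per Mb (1.77 to 3.86). The list was led by Cdh13 with 6, then Cdh4, Fat3 and Pcdh9 with 3 each. Of 52 axon guidance genes 24 had a peak, with 33 against 42.8, led by the Slit receptors Robo2 with 4 and Robo1 with 3. Of 26 genes of glutamate and GABA receptors 13 had a peak, with 25 against 29.8; Grin2b, an NMDA receptor subunit, and Grm7, a metabotropic receptor, held 4 each. These 4 lists had percents above 41.8% and densities of 2.02 to 2.23 per Mb, against 2.62 for all long genes, and without the catenin genes the cadherin density was no lower than that of all long genes. The 95% intervals of the 4 densities all hold 2.62, with upper bounds of 2.79, 3.04, 2.83 and 3.24 in the order given. The mean of 2.62 is not matched for gene length. The median span of the adhesion genes falls at 500 to 1000 kb, where all genes had 2.23 per Mb (1.96 to 2.53). The medians of the cadherin, axon guidance and receptor lists, 315, 230 and 387 kb, fall in length classes of 2.68, 2.82 and 2.68 per Mb.

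The other lists lay on both sides of the mean density. Voltage-gated channel genes held 40 peaks against 39.6, in 24 of 39 genes, with 4 in Dpp10, an auxiliary protein of Kv4 channels, and 3 each in the sodium channel gene Scn8a and the potassium channel gene Kcnma1. Neuronal RNA-binding protein genes held 18 against 17.2 in 11 of 17 genes, with 4 in the splicing factor gene Rbfox1 and 3 in Msi2. Synaptic scaffold genes held 42 against 33.8 in 18 of 26 genes, a density of 3.25 per Mb, led by Dlg2 and Dlgap1. Most of these are postsynaptic, but the list also holds genes of the presynaptic active zone, of which Pclo, Rims1 and Erc2 held 2 peaks each. In this list 13 of the 26 had a peak of at least 6 fragments, where 10.7% of all long genes did, but its genes are longer, with a median span of 339 kb. They held 15 such peaks where their sequence gives 6.37 at the mean density of those peaks. By the same measure the channel genes held 3 against 7.48, the axon guidance genes 4 against 8.08, the adhesion genes 16 against 16.6, the cadherin and catenin genes 7 against 6.96 and the receptor genes 5 against 5.62. Focal adhesion and matrix genes held 31 against 21.8 in 22 of 37, a density of 3.72 per Mb (2.53 to 5.27), with 3 each in Tnr, of the matrix, and the exchange factors Vav2 and Vav3; 2 of the 37 had a peak of 6 or more fragments, 3 peaks against 4.12. The intervals of these 2 densities reach down to 2.34 and 2.53, below the mean of all long genes. Glial, microglial and vascular marker genes held 5 peaks against 8.15 in 4 of 9 genes, with 2 in Gpc5 and 1 each in Mbp, of myelin, Slc1a2, the astrocyte glutamate transporter, and Flt1, a VEGF receptor, none above 4 fragments.

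Genes of ATF4, endoplasmic reticulum stress and one-carbon metabolism are mostly short. Only 4 of the 68 listed were 100 kb or more, and of these Slc7a11 alone held an inside peak, so that 1 peak stood against 1.497 at the mean density. Atf6, an endoplasmic reticulum stress sensor, and Nrf1, nuclear respiratory factor 1, held none and had no peak at their ends. Nrf1 was in the list although nuclear respiratory factor 1 is not part of these pathways, and it gives 0.271 of the 1.497. Mthfd1l, the mitochondrial formate-producing enzyme of one-carbon metabolism, held no inside peak but had 2 peaks within 1 kb of its own ends.

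The peaks themselves were low. The number of fragments at the summit had a median of 4 and ranged from 3, the fewest in the list, to 128. Peaks of 3 fragments made up 47.9% (45.4 to 50.5%), against 43.5% in shorter genes, 46.1% outside genes and 24.6% at gene ends. Peaks of 6 or more made up 18.9% (17.0 to 20.9%), against 19.7%, 18.5% and 41.7%. The deposited fold is over the background of the peak caller, to which the part of IgG is not given in the sources used here, and adds 1 to both the fragments and the background, so it is smaller than their plain ratio. Its median was 4.03 (quartiles 3.62 and 5.12) and the median width 203 bp. Tall peaks were rarer inside long genes than elsewhere: 11 of 1558 had 20 or more fragments (0.706%), against 2.26% of those in shorter genes, 1.77% of those outside genes and 4.77% at gene ends. Of the 56 such peaks outside genes, 22 had 100 or more fragments. The same held for 2 of the 11 in long genes, 3 of 29 in shorter genes and 6 of 89 at gene ends. The median local background was 0.138 in long genes and outside genes, 0.155 in shorter genes and 0.190 at gene ends, on the scale of fragments at 1 position, and the part of that difference in the heights was not tested.

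**Figure D5:**
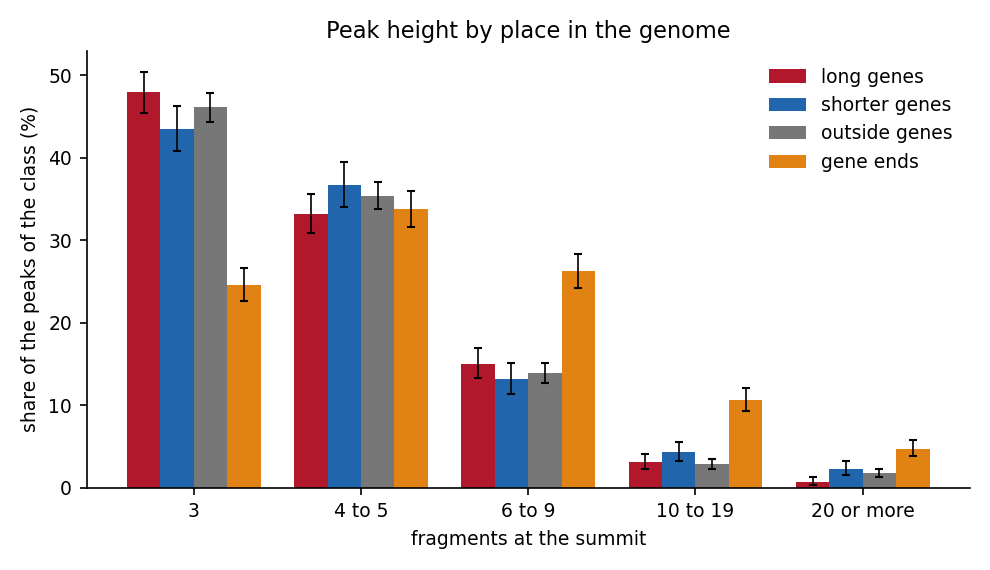
Share of peaks in percent (vertical axis) by number of fragments at the summit, for long genes, shorter genes, sequence outside genes and gene ends; bars start at 0 and error bars are Clopper-Pearson 95% intervals. At 3 fragments long genes stand at 47.9% and sequence outside genes at 46.1%, and gene ends have the largest share with 6 or more.

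The tallest inside peaks were in Chl1 and Atrnl1. Chl1, a neuronal adhesion protein of the L1 family, had a peak of 128 fragments (107 to 152), 32.3-fold, at chromosome 6 from 103649061 to 103649282. Atrnl1, an attractin-like membrane protein, had 1 of 116 fragments (95.9 to 139), 34.1-fold, at chromosome 19 from 58113300 to 58113595. They were 222 and 296 bp wide and lay 83.8 and 19.8 kb from the nearest end of the host. Widths among the next peaks varied. Abr, a regulator of small GTPases, had 61 fragments over 810 bp, and Ank2 47 over 616 bp. Trio, a guanine nucleotide exchange factor of axons, had 30 fragments over 896 bp, and Adk, adenosine kinase, 25 over 750 bp. Mdga2, an inhibitor of synapse adhesion, had 31 fragments over 374 bp and Map4, a microtubule protein, 31 over 445 bp. Hlcs, which attaches biotin to carboxylases, and Xylt1, which starts proteoglycan chains, had 25 over 313 bp and 24 over 438 bp. Ppp1r9a, the actin-binding neurabin, had 22 over 299 bp and Tnrc6b, of microRNA silencing, 19 over 216 bp. The Map4 summit lay 297 bp and the Hlcs summit 766 bp from a listed start of the same gene.

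Inside their hosts the peaks were spread widely. The median distance to the nearest end of the host was 58.5 kb, and the range was 1.02 to 1060 kb. Within 10 kb of a host end lay 153 peaks (9.82%), and more than 50 kb away lay 893 (57.3%). The strand of the host was known for 1207 peaks, and 52.8% of these (49.9 to 55.6%) were nearer the 5' than the 3' end. With each gene cut into 10 equal stretches, the one at the 5' end held 148 (12.3%, 10.5 to 14.2%) and the one at the 3' end 108. Among 898 peaks that shared a gene with another, the median distance to the nearest one was 62.9 kb, and 99 (11.0%) had a neighbour within 10 kb, in 47 genes. The closest summits, 463 bp apart, were both in Pde4d, at chromosome 13 from 109822268 to 109822484 and from 109822863 to 109823142, each with 6 fragments.

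Few of the hosts also had a peak at their ends. Of the 1016 hosts, 85 (8.37%, 6.74 to 10.2%) had a peak within 1 kb of an own end, against 91 of the 1413 long genes without an inside peak (6.44%, 5.22 to 7.85%) and 7.25% of all long genes. These intervals overlap. Of the 58 hosts with an end peak whose start window was in the RefSeq table, 0 had TGATGCAA there and 2 had TGACGTCA (3.45%, 0.420 to 11.9%). These are near the shares of all start windows, 0.895% and 1.79%, and of the 728 hosts without an end peak, 0.549% and 2.20%.

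The choice of 100 kb fell at no natural gap. The 3 protein-coding genes just above it were Tut4 (100.006 kb, 0 peaks), Smarcal1 (100.096 kb, 1 peak) and Map2k4 (100.116 kb, 0 peaks). The 3 just below were Arsg (99.998 kb), Vmp1 (99.979 kb) and Stard9 (99.948 kb), with 0 peaks each. A summit inside several protein-coding genes, as for 20 peaks, was given to the longest, and 78 summits also lay inside a non-coding gene.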

How the data were processed

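ATF4 binding was profiled by CUT&Tag in cultured mouse neurons, with 1 ATF4 library and 1 IgG library. The authors deposited the peak list of the ATF4 library, with a fold enrichment (a ratio), −log10 p and −log10 q values and a display score per peak. The submitters' processing notes name BWA, MACS2 2.1.2 and mm10; the peak threshold and the use of IgG in calling are not given in the sources used here.

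Fragments at each summit and the local background were solved from fold and p by the Poisson formulas of MACS2, within 0.001 of −log10 p, for all 7873 peaks. They are reads if single reads were used. The total depth of the library is unknown. Genes came from the RefSeq table of GRCm38.p6 (49943 genes, 21887 protein-coding, 21 chromosomes), the assembly of mm10. Strand and start windows came from the RefSeq start table, which gave a window to 786 of the 1016 hosts. Density is peaks over the sequence the rule allows, each base given to its longest gene. "Outside genes" means outside protein-coding genes and over 1 kb from any gene end. Intervals are 95%: exact Poisson for counts and densities, Clopper-Pearson for shares, and an exact binomial interval for density ratios. Copies made by PCR are not separate molecules, so the intervals hold counting error alone. No p-value was computed, because 1 library has no replicates.

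Genes were named by rule: the 12 hosts with most inside peaks (ties by density), the 8 densest of those with at least 4, the hosts of the 12 peaks of largest −log10 p, the 5 longest genes without an inside peak, the long genes of the ATF4 list, the leading 2 of every other list (with ties), and 3 genes on each side of 100 kb. One gene that the rule names is not reported here. The start sites inside genes, the TGATGNAA search and the changes to the members of 2 lists were chosen after their values were seen. The members and the 10 lists were chosen with earlier results of these data known. Python 3.11.15, numpy 2.4.6, scipy 1.17.1 and pandas 2.3.3 were used, and the functions were tested on simulated data.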

Additional observations from a re-analysis of the deposited data

How the results depend on the processing

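With 12 alternatives for 8 results, 73 of 96 values stayed within the 95% interval of the value reported or, for counts, within 1.5 times of it, and 23 moved. The density ratio of long to shorter genes was below 1, and that of long genes to sequence outside genes above 1, under all 12. With only peaks of −log10 q of at least 5, 207 inside peaks were left, 7.90% of long genes had 1, density was 0.347 per Mb, the ratios were 0.697 (0.569 to 0.855) to shorter genes and 1.10 (0.931 to 1.30) to sequence outside genes, the median was 7 fragments, the most in 1 gene was 3, and 1.04% of hosts had an end peak. With only peaks of at least 6 fragments, 294 were left, 10.7% of long genes had 1, density was 0.493 per Mb, the median was 7 fragments, the most in 1 gene was 5, and 2.31% of hosts had an end peak. These filters leave fewer peaks by construction.

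At 200 kb there were 997 inside peaks, 58.4% of long genes had 1, density was 2.43 per Mb and the ratio to sequence outside genes 1.21. At 50 kb 29.2% of genes had a peak. With 3000 bp around gene ends 39.2% of long genes had an inside peak and 11.4% of hosts an end peak, and with 500 bp 5.69% of hosts had an end peak. Without chromosomes X and Y the ratio to sequence outside genes was 1.21.

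Using protein-coding gene ends alone, the whole peak, the shortest host, near peaks as 1 or no peak of 100 or more fragments moved none of the 8. No paired analysis was possible because the peak list holds 1 library. Of the peaks, 47.9% rest on 3 fragments, so single peaks and counts per gene are the least certain values.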
